A study of Mus musculus with 8 samples.

Results

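ATF4 is the transcription factor through which cells answer a shortage of amino acids, unfolded protein in the endoplasmic reticulum and other stresses that lead to phosphorylation of the initiation factor eIF2, a programme called the integrated stress response. The 10 genes described here are Atf4 itself and 9 of its textbook targets and partners: the transcription factors Atf5 and Ddit3, the stress effectors Trib3, Chac1 and Sesn2, and the enzymes Asns, Phgdh, Psat1 and Shmt2, which make asparagine, serine and glycine. They were chosen by name, with earlier results of these data known. All 10 of the 10 were found among the 24421 genes counted and passed the filter on low counts that left 15458 genes for testing.

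The cells were mouse embryonic stem cells of the hybrid line CAST/Ei x 129/Sv/Jae, either wild type (WT) or carrying the 6A mutation of HNRNPK, an RNA-binding protein that takes part in X inactivation by the long noncoding RNA Xist. The sources used here do not say what 6A substitutes, nor whether each genotype is a single clone. The 4 groups were WT at day 0, 6A at day 0, WT at day 14 and 6A at day 14, each with 2 libraries of ribosome-depleted total RNA. Day 0 cells had grown with leukaemia inhibitory factor on irradiated fibroblast feeders, which were removed, in a medium that held non-essential amino acids, a supplement that includes serine, glycine and asparagine. For day 14, the factor was withdrawn, and embryoid bodies formed in suspension and were later plated on gelatin. The design sentence of the series names day 7 where every sample label names day 14, and day 14 is used here. Both day 14 cultures are mixtures of cell types, and in such bulk RNA fewer cells of a type and less RNA per cell cannot be told apart.

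As background, phosphorylated eIF2 lowers translation in general while upstream reading frames in the Atf4 messenger RNA let more ATF4 protein be made, so the messenger level alone does not give the level of the protein. ATF4 pairs with C/EBP proteins or with CHOP, the product of Ddit3, on a response element known as the CARE, and switches on amino acid transporters, tRNA synthetases and biosynthetic enzymes. Embryonic stem cells are known for rapid growth and high use of serine, glycine and one-carbon units.

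The core of that element, TGATGNAA on either strand, was searched for in RefSeq promoters of build GRCm38.p6, from 250 bases before to 50 bases after each start. It lay in 3 of the 12 promoters of the 10 genes, those of Asns, Chac1 and Trib3, against 3.97% of 32851 promoters searched. These 3 sequences are shown because they hold the match. Asns, Chac1 and Trib3 had the largest fitted falls among the 10 genes in WT cells, with Trib3 (log2 -2.87) close to Psat1 (-2.81). In 6A the largest were those of Asns (-2.75), Psat1 (-2.53) and Trib3 (-2.42), and Psat1 holds no match in the stretch searched. A link between the match and the size of a fall or a genotype difference was not tested. Each sequence is a stretch of 100 bases read 5′ to 3′ on the strand of the gene, with the match in capitals.

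Asns (chr6:7693185-7693284, minus strand): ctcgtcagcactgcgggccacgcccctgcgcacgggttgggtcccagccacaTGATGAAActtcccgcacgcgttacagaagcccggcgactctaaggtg
Chac1 (chr2:119351009-119351108, plus strand): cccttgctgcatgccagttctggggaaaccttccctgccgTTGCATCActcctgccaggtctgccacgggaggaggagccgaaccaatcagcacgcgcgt
Trib3 (chr2:152344036-152344135, minus strand): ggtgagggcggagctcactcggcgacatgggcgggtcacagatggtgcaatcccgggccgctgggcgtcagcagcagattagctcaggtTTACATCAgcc

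In Asns the match began 23 bases before the RefSeq start, in Chac1 it began 193 bases before it and read in the opposite direction, and in Trib3 it began at base 15 of the transcript, also reversed. The Asns match is the start of the element through which amino acid shortage is known to act on this gene. The full cyclic AMP response element, TGACGTCA, lay in 0 of the 12 promoters and in 1.79% of all. The CCAAT box lay in 7 of the 12, in every gene but Asns, Shmt2 and Trib3, against 37.4% of all. A match is a run of letters and not evidence of binding, and the 3 motifs were counted without regard to overlap between them. A gene without a match may hold the element outside the stretch searched.

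Library totals ran from 8146684 to 15540163 counts, and the 10 genes together held between 2173 and 2501 normalised counts (CPM, counts scaled to a library of fixed size) in day 0 libraries and between 525 and 636 in day 14 libraries. Hnrnpk, the mutated gene, was lower in 6A at both days, with a log2 fold change of -0.58 ± 0.12 (SE; adjusted p = 0.0400, edgeR) at day 0 and of -0.40 ± 0.12 (adjusted p = 0.0434, edgeR) at day 14. Neither call was stable: when a library was left out, the adjusted p (edgeR) rose to as much as 0.264 at day 0, where the call held only without WT replicate 2 of day 0, and 0.289 at day 14, where it held only without either WT library of day 0. At day 14 the call was also lost with DESeq2, and 129-assigned reads gave a log2 value of 0.24. A substitution need not alter the messenger level, so this does not check the labels. Summed over 8 pluripotency markers, the level lay between 4390 and 4648 CPM at day 0 and between 369.9 and 508 at day 14. The 6 Y-linked genes listed, which mark male cells, summed to 28.2 to 28.3 CPM in WT and 43.4 to 46.9 in 6A at day 0, and to at most 0.0966 at day 14. A list of 10 fibroblast and feeder markers summed to 1381 to 1499 CPM in WT and 1527 to 2131 in 6A at day 0. All 10 were fitted higher in 6A at day 0, and 2 were called higher, against 1.06% of all genes. In 8 of them both 6A libraries were above both WT libraries, against 24.9% of all genes. Of the Y-linked genes 4 could be tested, and all 4 were fitted higher in 6A with 0 called. The part of feeder cells in the day 0 values was not tested.

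The 10 genes covered a wide span of expression before differentiation. Divided by the summed length of each gene's exons, Asns had the highest level in WT at day 0, 289.8 CPM per kilobase, followed by Atf4 with 201. Shmt2 with 115 and Psat1 with 108 CPM per kilobase came next, and their libraries overlapped. Sesn2 with 29.6 was above Phgdh with 27.2 in every library, and Atf5 with 28.4 overlapped both. Chac1 with 20.99, Trib3 with 14.6 and Ddit3 with 4.32 CPM per kilobase closed the list, with no overlap between them, and the highest member was 67.2-fold above the lowest.

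At day 14 in WT the order was different. Atf4 led with 93.6 CPM per kilobase, and Asns had dropped to 28.2 and Shmt2 to 20.8. Psat1 with 15.4, Phgdh with 15.1 and Atf5 with 13.4 overlapped in their libraries, as did Atf5 with Ddit3, which stood at 9.86. Sesn2 had 8.80 CPM per kilobase, just under Ddit3, and Chac1 with 2.35 and Trib3 with 2.02 overlapped at the bottom. In 6A at day 14 the first 3 were the same genes, at 94.4 for Atf4, 43.4 for Asns and 24.2 for Shmt2, and Chac1 (3.89) and Trib3 (2.25) were again the lowest.

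**Figure D1:**
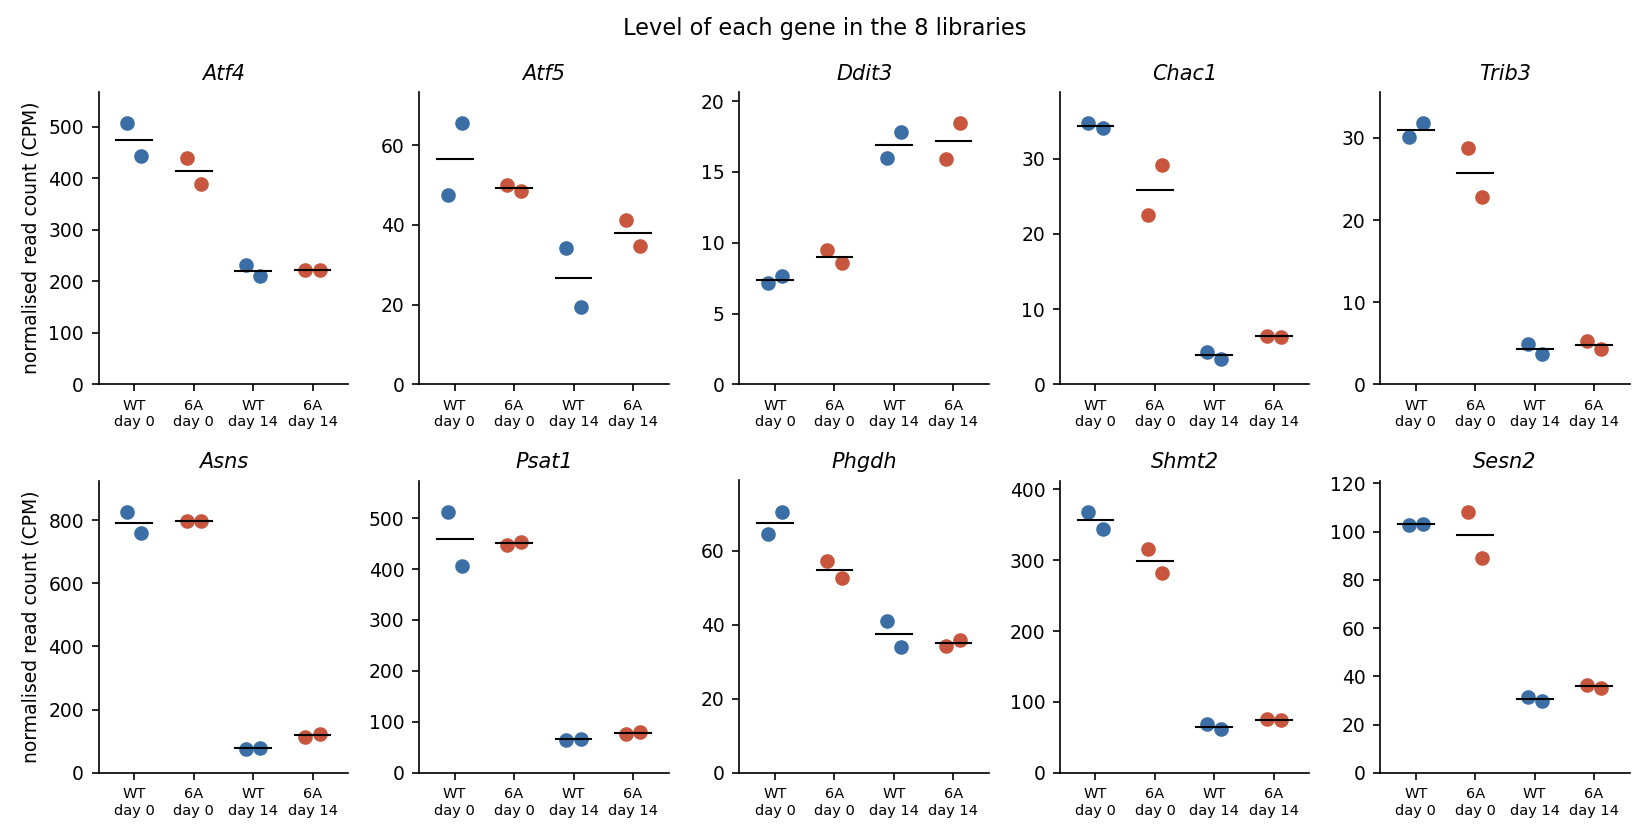
Normalised read count (CPM, linear axis from 0, a separate scale for each gene) of the 10 genes in the 8 libraries, by genotype and day. Points are libraries and bars are means of 2. In 9 genes the day 14 libraries lie below the day 0 libraries of the same genotype, and in Ddit3 they lie above.

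On differentiation, 9 of the 10 genes fell in WT cells and 1, Ddit3, rose. Across all genes tested, 36.8% were called lower and 38.4% higher in the same comparison, so a fall as such was common, while the median log2 fold change was -2.11 over the 10 genes against 0.04 over all genes. In 6A cells 8 genes fell and Ddit3 rose, where 36.6% of all genes were called lower and 35.4% higher, and the medians were -1.72 and -0.03. The largest falls were those of Asns, Chac1, Trib3, Psat1 and Shmt2. Over the same interval all 8 pluripotency markers and 7 of 8 proliferation markers fell in both genotypes, the latter from 3152 to 3426 summed CPM at day 0 to between 1505 and 1677 at day 14; their part in the falls was not tested.

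Among the transcription factors, Atf4 had 507 and 442 CPM in WT at day 0, 439 and 388 in 6A at day 0, 231 and 209.9 in WT at day 14, and 223 and 223 in 6A at day 14. Every day 0 library was above every day 14 library, and WT and 6A did not overlap at day 0 but overlapped at day 14. The fall was 2.15-fold in WT (log2 -1.10 ± 0.12 SE, adjusted p = 1.29e-06, edgeR) and 1.86-fold in 6A (log2 -0.89 ± 0.12 SE, adjusted p = 1.17e-05, edgeR), while 6 of the other 9 genes had a larger fitted fall in both genotypes.

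Atf5, a close relative of ATF4 whose messenger is under similar translational control, had 47.6 and 65.5 CPM in WT at day 0, 49.9 and 48.5 in 6A at day 0, 34.2 and 19.3 in WT at day 14, and 41.2 and 34.7 in 6A at day 14. Relative to their mean, the WT libraries were spread more widely than in the other 9 genes, and replicate 2 was the lower of them at day 14. It fell in WT (log2 -1.11 ± 0.25 SE, adjusted p = 0.00224, edgeR), whereas the log2 value of -0.37 ± 0.24 SE in 6A did not pass the test (adjusted p = 0.185, edgeR). The difference between those changes did not pass either (log2 0.73, adjusted p = 0.290, edgeR). With only the 6A libraries in the fit the change in 6A passed (adjusted p = 0.0409, edgeR), as it did on reads assigned to the 129 genome (adjusted p = 0.0340, edgeR).

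Ddit3, which encodes CHOP, a factor tied to cell death under prolonged stress, went the other way. It had 7.16 and 7.63 CPM in WT at day 0, 9.49 and 8.54 in 6A at day 0, 15.996 and 17.8 in WT at day 14, and 15.9 and 18.4 in 6A at day 14. All day 14 libraries were higher than all day 0 libraries, with a 2.28-fold rise in WT (log2 1.19 ± 0.18 SE, adjusted p = 3.61e-05, edgeR) and a 1.91-fold rise in 6A (log2 0.93 ± 0.17 SE, adjusted p = 0.000242, edgeR). The counts behind these values were 166 to 363 over the 2 libraries of a group. Exons of Ddit3 share 68 bases with Mars on the opposite strand, and the sources used here do not say whether reads were counted by strand. On 129-assigned reads, which are few for this gene, the rise did not pass in WT (log2 0.59, adjusted p = 0.445, edgeR) or in 6A (log2 0.95, adjusted p = 0.112, edgeR).

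The 3 stress effectors fell together. Chac1, which encodes an enzyme that degrades glutathione, had 34.7 and 34.0 CPM in WT at day 0, 22.5 and 29.1 in 6A at day 0, 4.29 and 3.40 in WT at day 14, and 6.47 and 6.27 in 6A at day 14. Its WT libraries were above the 6A libraries at day 0 and below them at day 14, with no overlap on either day. The fall was 9.04-fold in WT (log2 -3.18 ± 0.20 SE, adjusted p = 5.71e-09, edgeR) and 4.05-fold in 6A (log2 -2.02 ± 0.18 SE, adjusted p = 3.04e-07, edgeR).

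Trib3, a pseudokinase that is induced by ATF4 and CHOP and restrains them in turn, had 30.1 and 31.8 CPM in WT at day 0, 28.7 and 22.8 in 6A at day 0, 4.87 and 3.72 in WT at day 14, and 5.31 and 4.25 in 6A at day 14. The days were far apart and the genotypes overlapped at day 14. It fell 7.32-fold in WT and 5.36-fold in 6A (adjusted p = 2.11e-08 and 1.14e-07, edgeR).

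Sesn2, a leucine sensor that holds back the growth kinase complex mTORC1, stood at 103 and 103 CPM in WT and 108 and 89.2 in 6A at day 0, against 31.5 and 29.7 in WT and 36.5 and 35.3 in 6A at day 14. It fell 3.37-fold in WT and 2.74-fold in 6A (adjusted p = 3.71e-08 and 2.43e-07, edgeR), and the genotypes overlapped at day 0 but not at day 14.

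Of the enzymes, Asns, which makes asparagine from aspartate, changed most. It had 827 and 759 CPM in WT at day 0, 799 and 799 in 6A at day 0, 75.8 and 78.6 in WT at day 14, and 113 and 124 in 6A at day 14. The genotypes overlapped at day 0, and at day 14 both 6A libraries were above both WT libraries. The fall was 10.3-fold in WT (log2 -3.36 ± 0.12 SE, adjusted p = 4.79e-11, edgeR) and 6.73-fold in 6A (log2 -2.75 ± 0.12 SE, adjusted p = 1.71e-10, edgeR). On a scale of all genes tested, those log2 values lay at percentile 1.97 in WT and 3.65 in 6A.

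The enzymes of the serine pathway all fell, by different fitted amounts. Phgdh, the first enzyme on the way from glycolysis to serine, had 64.7 and 70.5 CPM in WT at day 0, 57.3 and 52.5 in 6A at day 0, 40.9 and 34.1 in WT at day 14, and 34.2 and 35.8 in 6A at day 14, a fall of 1.81-fold in WT and 1.57-fold in 6A (adjusted p = 5.26e-05 and 0.000632, edgeR). Psat1, the next enzyme, had 512 and 405 CPM in WT at day 0, 447 and 454 in 6A at day 0, 64.0 and 67.1 in WT at day 14, and 76.4 and 79.6 in 6A at day 14, a fall of 6.99-fold in WT and 5.78-fold in 6A (adjusted p = 4.07e-10 and 1.11e-09, edgeR). Shmt2, the mitochondrial enzyme that splits serine into glycine and a one-carbon unit, had 368 and 345 CPM in WT at day 0, 316 and 281 in 6A at day 0, 68.4 and 61.1 in WT at day 14, and 75.3 and 75.1 in 6A at day 14, a fall of 5.51-fold in WT and 3.97-fold in 6A (adjusted p = 5.74e-10 and 4.38e-09, edgeR). Phgdh thus kept 55.5% of its day 0 level in WT and 63.7% in 6A, where Psat1 kept 14.3% and 17.3% and Shmt2 kept 18.2% and 25.2%; the difference in fall between these genes was not tested.

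**Figure D2:**
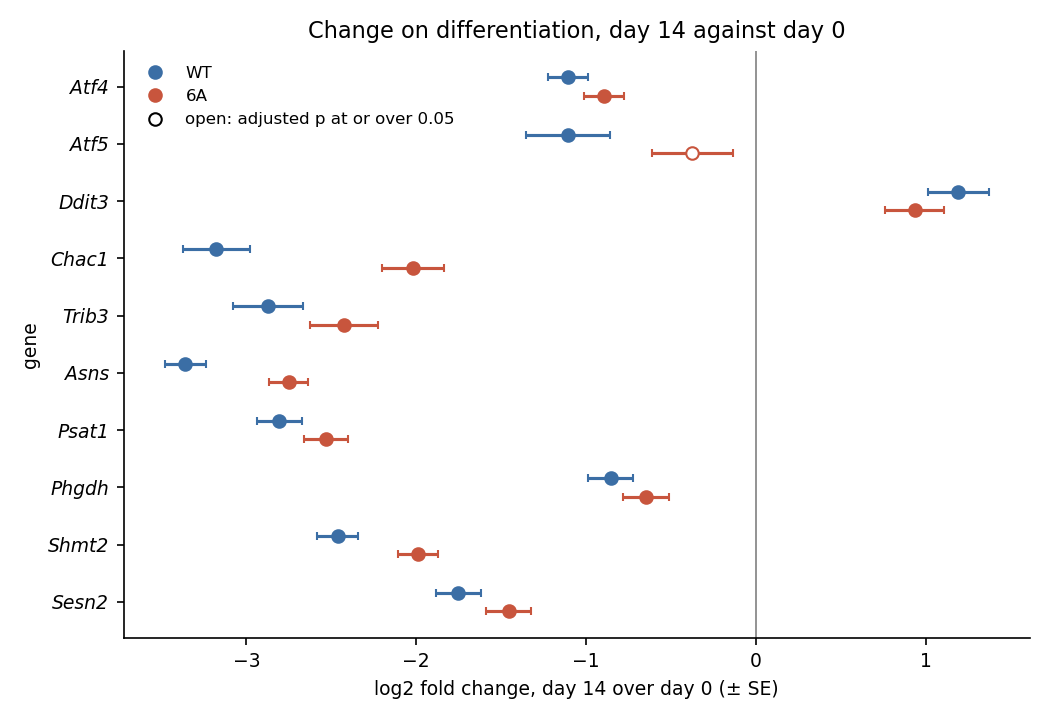
Log2 fold change from day 0 to day 14 (horizontal axis, point and SE) of the 10 genes, WT in blue and 6A in red, with open points where the adjusted p was at or over 0.05. The values run from -3.36 for Asns in WT to 1.19 for Ddit3 in WT, and the single open point is Atf5 in 6A.

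The next question was whether the 6A mutation altered these genes in undifferentiated cells. None of the 10 genes was called at day 0, where 1.58% of all genes were. The log2 fold changes of 6A over WT ran from -0.41 for Chac1 to 0.28 for Ddit3, with adjusted p-values from 0.221 to 0.977 (edgeR), and 8 of the 10 were below 0. In 5 genes, Atf4, Chac1, Trib3, Phgdh and Shmt2, both 6A libraries were under both WT libraries, and in 1, Ddit3, both were above; 20.8% of all genes were apart in the lower and 24.9% in the higher direction. The median was -0.20, against 0.01 for all genes. Fibroblast and feeder markers were fitted higher in 6A at day 0, as given above, and their part in these values was not tested. For Chac1, the member with the lowest value, the 95% interval of the log2 difference ran from -0.75 to -0.07 before adjustment for the number of genes, and for Asns from -0.22 to 0.24.

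At day 14, 2 of the 10 genes, Asns and Chac1, were higher in 6A and 0 were lower, where 5.33% of all genes were called higher and 8.31% lower. Asns was 1.54-fold higher (77.2 ± 1.98 CPM in WT, 118.7 ± 8.03 in 6A, SD, n = 2; log2 0.62 ± 0.11 SE, adjusted p = 0.00211, edgeR). Chac1 was 1.68-fold higher (3.84 ± 0.628 CPM in WT, 6.37 ± 0.138 in 6A, SD, n = 2; log2 0.75 ± 0.23 SE, adjusted p = 0.0422, edgeR) on 80 and 132 counts. Asns kept its call when any of the 8 libraries was left out (adjusted p from 0.000664 to 0.0353, edgeR) but not on 129-assigned reads alone (log2 0.58, adjusted p = 0.146, edgeR). Chac1 lost it without WT replicate 1 or 2 or 6A replicate 1 or 2 of day 14 (adjusted p = 0.0812, 0.285, 0.161 and 0.126, edgeR), with DESeq2 (adjusted p = 0.0636) and on 129-assigned reads, where the log2 value was 0.36.

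The other 8 genes were not called at day 14. Atf5 had a log2 difference of 0.52 ± 0.25 (adjusted p = 0.220, edgeR), which moved to 0.97 and passed (adjusted p = 0.0264, edgeR) when WT replicate 1 of day 14 was left out. Psat1 (0.25), Sesn2 (0.23) and Shmt2 (0.22) had both 6A libraries above both WT libraries, as did Asns, Chac1 and Atf5, which makes 6 of 10 genes apart in the higher and 0 in the lower direction against 28.2% and 28.5% of all genes. Atf4 itself was at 221 ± 15.2 CPM in WT and 223 ± 0.195 in 6A (SD, n = 2), a log2 difference of 0.01 with a 95% interval from -0.24 to 0.27. Ddit3 (0.02), Trib3 (0.18) and Phgdh (-0.10) overlapped between the genotypes.

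**Figure D3:**
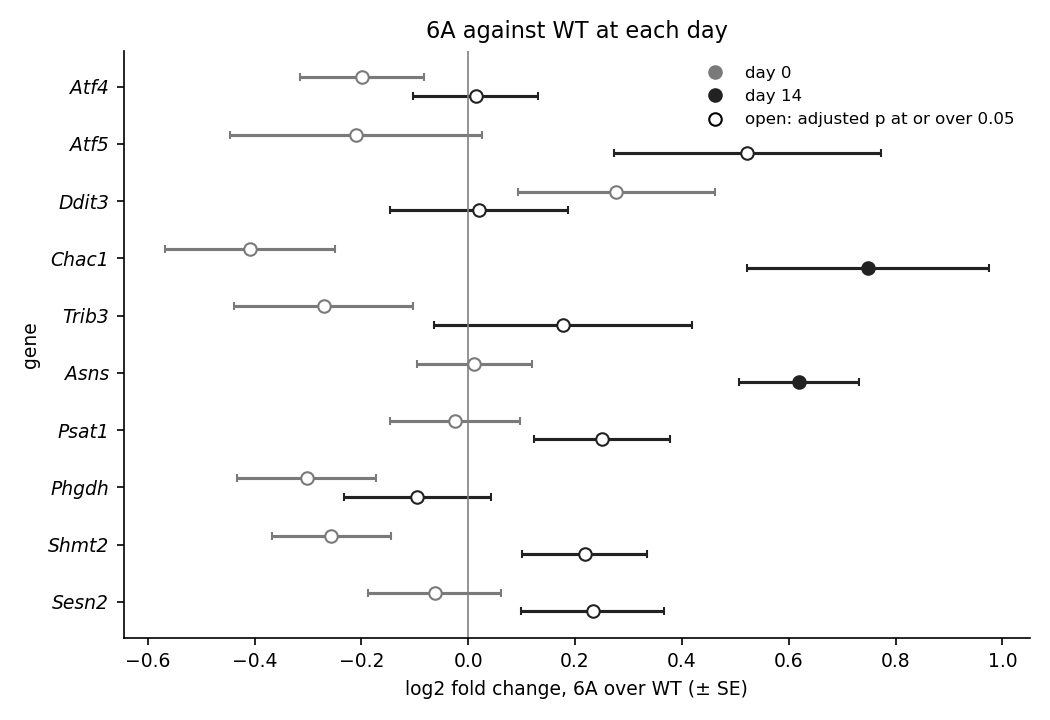
Log2 fold change of 6A over WT (horizontal axis, point and SE) of the 10 genes at day 0 in grey and day 14 in black, with filled points where the adjusted p was under 0.05. Only Asns (0.62) and Chac1 (0.75) at day 14 are filled.

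Cell type markers differed between the genotypes at day 14 as well, where 5.33% of all genes were called higher in 6A and 8.31% lower. Pluripotency markers were called higher in 6A in 4 of 8 cases, with a summed level of 369.9 to 379.97 CPM in WT and 504 to 508 in 6A. All 8 cardiac markers were lower in 6A (1475 to 1675 summed CPM in WT, 268 to 286 in 6A), as were 6 of 8 neural markers (248 to 256 in WT, 100.2 to 121 in 6A). Red cell markers were higher in 5 of 6 cases (1.58 to 1.97 in WT, 82.0 to 82.8 in 6A), macrophage markers in 4 of 6 (105.6 in both WT libraries, 199.6 to 205 in 6A), endothelial markers in 4 of 6 (253 to 262 in WT, 373 to 389 in 6A) and visceral endoderm markers in 3 of 8 (291 to 292 in WT, 454 to 521 in 6A). Of the 10 fibroblast and feeder markers, 2 were higher and 2 lower in 6A (9483 to 10886 summed CPM in WT, 10226 to 14424 in 6A). None of the markers in these lists had 0 counts in either day 14 group, and 0 of 8 proliferation markers were called in either direction. The part of these differences in the values of Asns and Chac1 was not tested.

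Whether differentiation acted differently on the genes in the 2 genotypes was tested directly, as the change in 6A minus the change in WT. This test uses the day 14 libraries of the comparison above. It also uses the day 0 libraries, where fibroblast and feeder markers were fitted higher in 6A. Chac1 passed with a log2 difference of 1.16 ± 0.28 SE (adjusted p = 0.0301, edgeR) as did Asns with 0.61 ± 0.16 SE (adjusted p = 0.0405, edgeR), and 0 genes went the other way, where 1.4% of all genes were called higher and 3.34% lower. Both fell in both genotypes and fell less in 6A: Chac1 kept 11.2% of its day 0 level in WT and 24.7% in 6A, and Asns kept 9.74% and 14.9%. The 6A libraries of Chac1 were under those of WT at day 0 and above them at day 14, whereas those of Asns overlapped with WT at day 0. Of the other 8 genes, 7 had a log2 value above 0, up to 0.73 for Atf5, and Ddit3 had -0.26. The Asns call was lost without either 6A library of day 0 or any library of day 14 (adjusted p from 0.0873 to 0.164, edgeR), and the Chac1 call without 6A replicate 1 of day 0 or any library of day 14 (adjusted p from 0.0629 to 0.183, edgeR).

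The wider pathway was described through 5 lists of 100 genes in all, of which 99 were tested. The lists follow textbook knowledge of the response and were chosen with earlier results of these data known. At day 0 none of the 99 genes was called between genotypes, where 1.58% of all genes were. At day 14 the medians of the 5 lists ran from 0.11 to 0.26 on the log2 scale, against 0.00 for all genes.

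Cytosolic aminoacyl-tRNA synthetases, which load amino acids onto tRNA and many of which are ATF4 targets, fell on differentiation in 19 of 20 cases in WT and in 19 of 20 in 6A, with medians of -1.81 and -1.33. Among all genes, 36.8% were called lower in WT and 36.6% in 6A. Aars, the alanyl enzyme, went from 942 and 969 CPM in WT at day 0 to 232 and 221 at day 14. At day 14, 4 were higher in 6A and 0 were lower: Farsb (log2 0.44, adjusted p = 0.0183, edgeR), Nars, which loads asparagine (0.43, 0.0165), Gars (0.38, 0.0299) and Iars (0.34, 0.0460). The shares over all genes were 5.33% higher and 8.31% lower. Nars had 88.9 and 90.9 CPM in WT and 125 and 118 in 6A at day 14. When any 1 library of day 14 was left out, 0 of the 20 were called, and without either 6A library of day 0 there were 2 calls.

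Among 24 tested partners and other targets, 16 fell and 5 rose in WT, against 36.8% and 38.4% of all genes. In 6A 15 fell and 5 rose, against 36.6% and 35.4%. Slc7a3, a transporter of arginine and lysine, had the largest fall of the list in WT, from 529 and 476 CPM to 24.2 and 24.5 (log2 -4.36), and in 6A it fell from 495 and 537 to 39.4 and 39.97 (log2 -3.70). Slc7a11, the cystine transporter, fell by 3.30 in WT and by 4.94 in 6A on the log2 scale, and Slc1a5, a glutamine transporter, fell by 2.35 and by 1.83. Atf3, a stress-induced factor of the same family, rose by 2.46 in WT and 2.60 in 6A. At day 14, Slc7a3 (log2 0.70, adjusted p = 0.00156, edgeR), the arginine transporter Slc7a1 (0.40), the tRNA exporter Xpot (0.41) and the factor Jdp2 (0.62) were higher in 6A, and the lipoprotein receptor Vldlr was lower (-0.57, adjusted p = 0.00897, edgeR). That is 16.7% higher and 4.17% lower, against 5.33% and 8.31% of all genes. Without WT replicate 1 or 2 or 6A replicate 1 or 2 of day 14, 3, 1, 1 and 2 genes of the list were called, and Slc7a3 kept its call whichever of the 8 libraries was left out. Slc7a3 lies on the X chromosome, and the part of X inactivation in its difference between genotypes was not tested.

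The 21 other enzymes of serine, glycine and one-carbon metabolism fell in 15 cases and rose in 4 in WT, against 36.8% and 38.4% of all genes. In 6A they fell in 16 cases and rose in 4, against 36.6% and 35.4%. Shmt1, the cytosolic counterpart of Shmt2, fell from 234 and 227 CPM to 30.6 and 28.5 in WT, and Mthfd2, the mitochondrial folate enzyme that acts after Shmt2, from 194 and 187 to 28.6 and 26.3. At day 14, 3 were higher in 6A: Mthfd2 (log2 0.61, adjusted p = 0.00434, edgeR), thymidylate synthase Tyms (0.65, 0.00838) and the serine carrier Sfxn3 (0.54, 0.0142). The list had 14.3% called higher and 4.76% lower, against 5.33% and 8.31% of all genes. On CAST-assigned reads Mthfd2 (-1.23) and Sfxn3 (-0.30) had the opposite sign and did not pass (adjusted p = 0.776 and 0.968, edgeR). Aldh1l2, which oxidises one-carbon units in mitochondria, was lower in 6A (48.9 and 53.7 CPM in WT, 27.9 and 29.3 in 6A, log2 -0.84, adjusted p = 0.00107, edgeR), and unlike Shmt2 and Mthfd2 it had risen on differentiation in both genotypes, by 2.98 and 1.94. The 4 calls became 8 without either WT library of day 0, and 2, 1, 2 and 3 without WT replicate 1 or 2 or 6A replicate 1 or 2 of day 14, with Aldh1l2 called in every case.

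The 14 upstream genes, eIF2 and its kinases, the exchange factor eIF2B and the eIF2 phosphatases among them, gave 0 calls between genotypes at day 14 and 9 falls with 0 rises on differentiation in each genotype. Between genotypes at day 14, 5.33% of all genes were called higher and 8.31% lower. On differentiation 36.8% fell and 38.4% rose in WT, and 36.6% and 35.4% in 6A. The eIF2B subunits Eif2b3 (-1.79 in WT, -1.89 in 6A), Eif2b5 (-1.75, -1.61) and Eif2b1 (-1.43, -1.14), the eIF2 subunit Eif2s1 (-1.57, -1.38) and the RNA-activated kinase Eif2ak2 (-1.46, -1.73) fell in log2 units.

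The other branches of the unfolded protein response, read by 20 chaperones and factors, went both ways between days, with medians of -0.22 in WT and -0.05 in 6A. In WT 9 fell and 3 rose, against 36.8% and 38.4% of all genes, and in 6A 5 fell and 4 rose, against 36.6% and 35.4%. Between genotypes at day 14, 0 were called, against 5.33% higher and 8.31% lower over all genes. Creld2 (-1.83 in WT, -1.33 in 6A), Hyou1 (-1.38, -0.92), Manf (-1.08, -0.73) and Dnajb11 (-0.99, -0.84), all proteins of the endoplasmic reticulum, fell. The co-chaperone Dnajc3 rose on all reads (0.48, 0.92) but fell on CAST-assigned reads (-1.59 in WT, -3.81 in 6A, adjusted p = 0.0116 and 4.43e-06, edgeR). Of all allele-assigned reads, 79.9% to 80.8% went to 129, and why CAST-assigned reads gave the opposite sign was not tested. Without either WT library of day 0, 7 were called between genotypes at day 14.

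**Figure D4:**
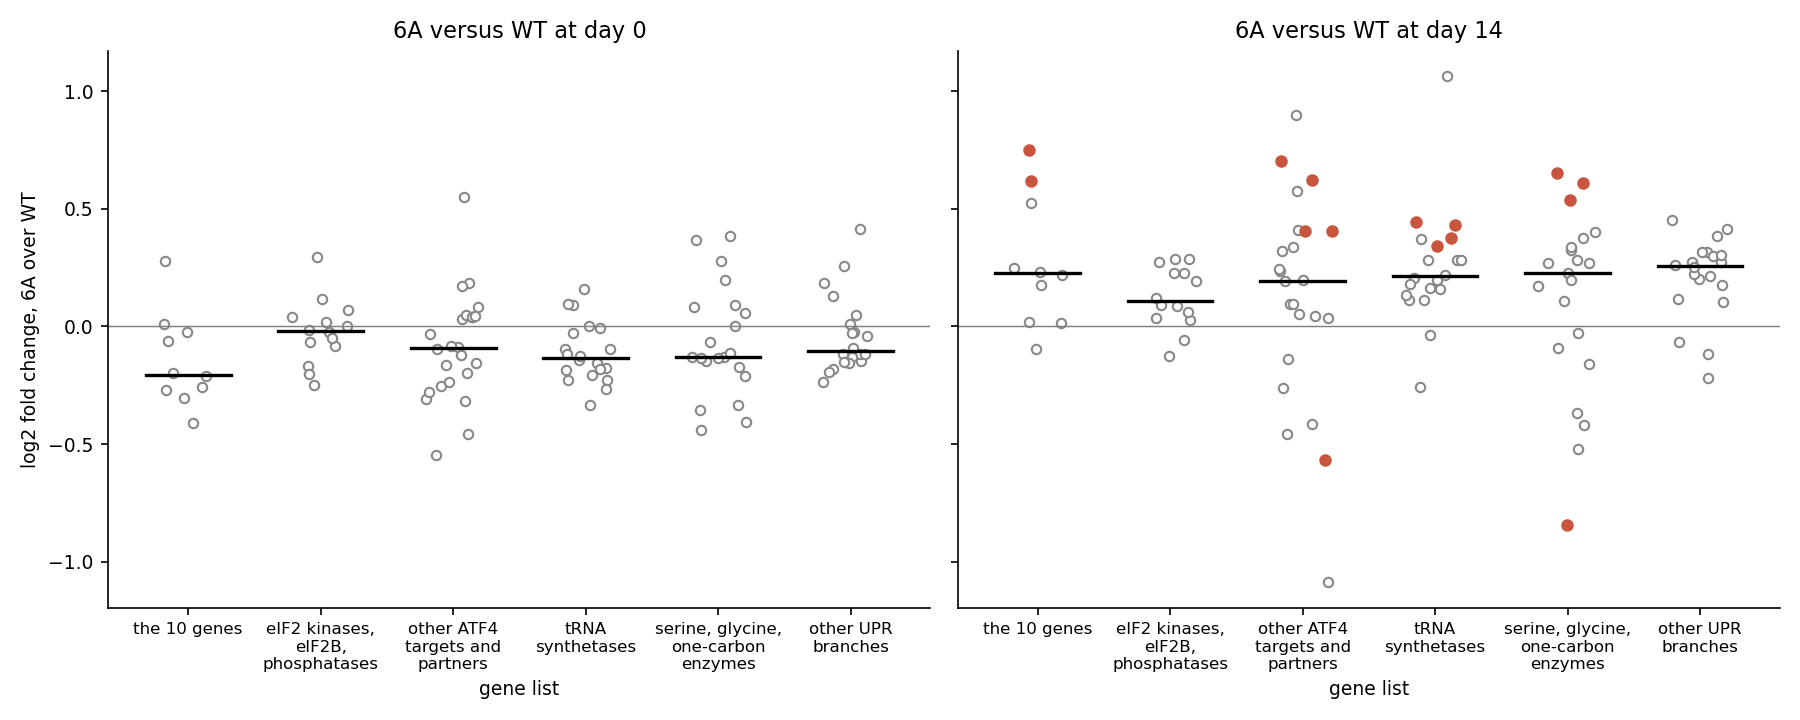
Log2 fold change of 6A over WT (vertical axis) at day 0 (left) and day 14 (right) for the 10 genes and the 5 pathway lists, 1 point per gene, filled red where the adjusted p was under 0.05, with bars at the medians. No point is filled at day 0, and at day 14 the filled points include Asns and Chac1 and 4 tRNA synthetases.

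Across the 8 libraries the 10 genes held 2 patterns. Pearson's r of log2(CPM + 0.1) between pairs of the 9 genes other than Ddit3 ran from 0.76 to 0.997 with a median of 0.98 over 36 pairs, and r of Ddit3 with each of the 9 from -0.98 to -0.79. The libraries share their day and genotype groups, so these values describe the fall between days. The 5 genes most like Asns over the 8 libraries, ranked among 11850 whose mean level reached 5 CPM, were Iars, Slc7a3, Gdf3, Mrpl47 and Ppat, with r from 0.9993 to 0.9996. Gdf3, a growth factor of the TGF-beta family found in pluripotent cells, had 207 and 170 CPM in WT at day 0, 11.1 and 10.2 in WT at day 14, and 17.1 and 17.8 in 6A at day 14. Ppat, the first enzyme of purine synthesis, had 346 and 302, 50.1 and 55.0, and 68.9 and 73.3 CPM in the same groups. Iars and Slc7a3 are in the pathway lists above, and Mrpl47 encodes a protein of the mitochondrial ribosome.

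The hybrid genome allows reads that cover a variant to be given to the CAST or the 129 parent. Between 29.1% and 31.6% of counts were so assigned, and 79.9% to 80.8% of those went to 129. The CAST share of allele reads was 0% to 8.40% in every library for Atf4, Ddit3, Chac1, Trib3, Psat1, Phgdh, Shmt2 and Sesn2, 8 of the 10 genes. For all of these but Chac1 and Trib3, the CAST share of the whole chromosome was low as well. It was 2.11% to 3.42% on chromosome 10 (Ddit3, Shmt2), 2.15% to 4.25% on 3 (Phgdh) and 2.57% to 3.81% on 19 (Psat1). On chromosome 4 (Sesn2) it was 2.42% to 5.01%, and on 15 (Atf4) 3.44% to 6.71%. Ddit3 had 0 CAST reads, on 11 to 31 allele reads over the 2 libraries of a group, which allows a share of up to 27.3% in WT at day 0 and 9.68% in 6A at day 14 (3 counts of the total, counting error only).

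Asns and Atf5 stood apart from the other 8. Asns was read mainly from CAST, with 74.3% and 75.4% in WT at day 0, 74.3% and 71.5% in 6A at day 0, 70.1% and 66.0% in WT at day 14 and 65.9% and 73.3% in 6A at day 14, on 117 to 2576 allele reads per library. Chromosome 6, on which it lies, had a CAST share of 12.6% to 21.2%. Atf5 had a CAST share of 38.0% to 53.3%, above the 35.1% to 36.8% of chromosome 7 in every library. Chac1 and Trib3 lie on chromosome 2, where 19.4% to 21.4% of allele reads were CAST, while their own shares did not exceed 8.40% and 3.33%. The Asns level at day 14 was fitted above WT in 6A on the reads of each parent: the log2 difference was 0.73 on CAST reads (adjusted p = 0.0311, edgeR) and 0.58 on 129 reads, the latter not passing as given above.

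The ratio of 129 to CAST reads was tested in 9 of the 10 genes, all but Ddit3, which had too few allele reads. None of the 9 was called between genotypes at day 0, where 0.167% of 12575 genes were, or at day 14, where 0.0398% were. Chac1 had 0 CAST reads in both groups at day 14, so its ratio could not be compared between genotypes there. Trib3 and Sesn2 each had 0 CAST reads in WT and 1 in 6A at day 14, too few for the test to decide. Between days, 16.3% of all genes were called in WT and 19.2% in 6A. Atf4 was among them in both genotypes: its CAST share was 5.06% and 5.35% in WT and 7.10% and 6.22% in 6A at day 0, against 0.466% and 0.371% in WT and 0.928% and 1.15% in 6A at day 14 (adjusted p = 4.1e-15 in WT and 5.56e-14 in 6A, edgeR). The CAST share of chromosome 15, on which Atf4 lies, also fell, from 5.28% to 6.71% at day 0 to 3.44% to 3.90% at day 14. Shmt2 was called in WT (adjusted p = 0.00011, edgeR), where CAST reads went from 82 of 2318 to 0 of 352, which allows a share of up to 0.852%. The Y-linked reads named above showed the same division between days, and the part of RNA from cells outside the hybrid line in these shares was not tested.

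**Figure D5:**
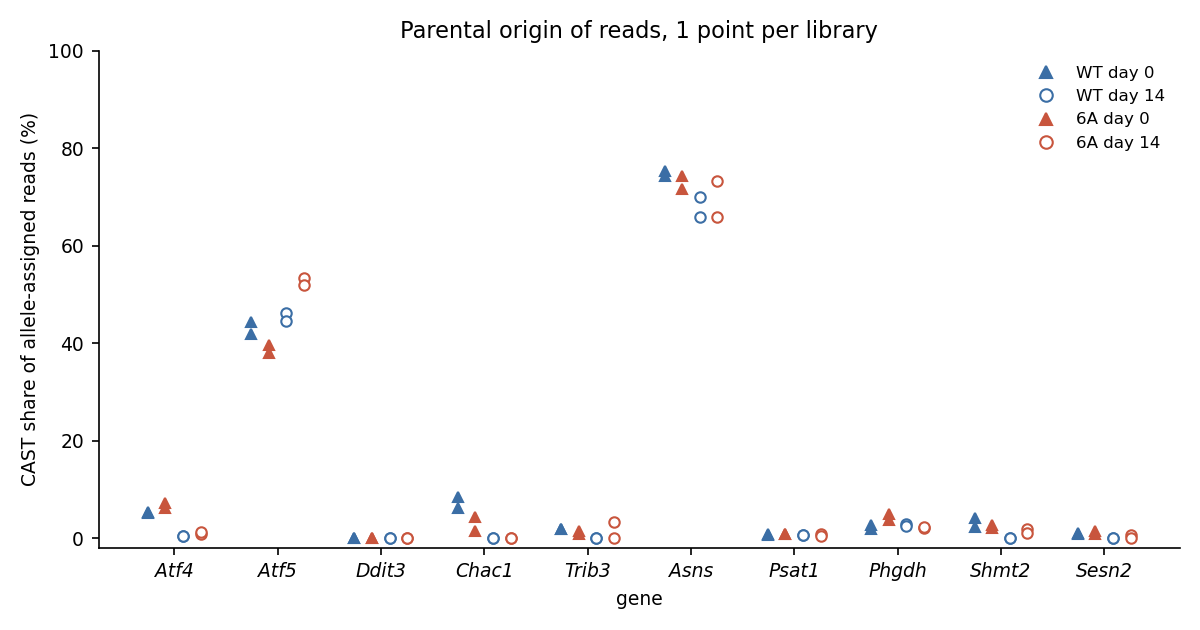
CAST share of allele-assigned reads (vertical axis, percent) for the 10 genes, 1 point per library, triangles for day 0 and open circles for day 14, WT in blue and 6A in red. Asns lies between 65.9% and 75.4%, Atf5 between 38.0% and 53.3%, and the other 8 genes at or below 8.40%.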

How the data were processed

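RNA-seq was deposited for 8 libraries of mouse embryonic stem cells, 2 in each of 4 groups of genotype and day, prepared with a directional kit and sequenced as 150-base paired reads, per the labels' protocols. Per the submitters' processing notes, cutadapt 1.4.2, STAR 2.7.10a and mm10 were used. The sources used here do not name the counter, its strand setting, the annotation or the allele assignment. The authors deposited raw counts per gene for all, CAST and 129 reads, used here as counts.

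Genes kept by filterByExpr were scaled by TMM and fitted with edgeR 4.0.16 (R 4.3.3) quasi-likelihood over all 8 libraries, 1 coefficient per group, 4 residual degrees of freedom, robust dispersion (common biological coefficient of variation 0.111). P-values were adjusted by Benjamini-Hochberg over all genes tested, a value under 0.05 was a call, and 5 contrasts were read. The ratio of 129 to CAST reads was fitted with the library as a block where allele reads averaged 10 or more per library. Both fits were tested on simulated data, with changes larger than those of Asns and Chac1 between genotypes at day 14. The ratio fit was so tested only on genes with a sizeable share of reads from each parent, unlike most of the members. Exon lengths came from GENCODE mouse release 21 and promoters from RefSeq.

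Alternatives were DESeq2 1.42.0, RLE scaling, no filter, 1 parent's reads only, the 2 groups alone, the replicate number as a block, at least 50 allele reads, and each library left out. An exact permutation test of 2 libraries against 2 cannot go below p = 0.333 (two-sided). P-values measure the spread between these libraries, which the protocol calls biological replicates without naming separate cultures, so it may be technical in part.

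The members and gene lists were chosen with earlier results of these data known. All 10 members are named; from each list, up to 4 called genes with the smallest adjusted p per comparison, all of them where 5 or fewer were called, and the 5 genes most correlated with Asns.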

Additional observations from a re-analysis of the deposited data

Results flagged for a closer look

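The 10 genes and the lists held 7 genes that changed by different amounts between days in WT and 6A by the test of that difference (change in 6A minus change in WT, log2, edgeR with adjusted p). Over all genes, 1.4% were called higher and 3.34% lower by that test. Asns (0.608) and Chac1 (1.157) are described above. Mthfd2 (0.782) went from 194 and 187 to 28.6 and 26.3 CPM in WT and from 170.4 and 167 to 44.3 and 39.2 in 6A (adjusted p = 0.0153). Tyms (0.766) fell by 1.56 in WT and by 0.80 in 6A on the log2 scale (adjusted p = 0.0448). The X-linked Slc7a3 had a value of 0.665 (adjusted p = 0.0330) and the synthetase Gars 0.601 (adjusted p = 0.0337), and both fell in both genotypes. Aldh1l2 (-1.041) rose in both and rose less in 6A (adjusted p = 0.0171). Each lost its call without at least 1 library, with adjusted p up to 0.0917 for Aldh1l2, 0.0984 for Mthfd2, 0.152 for Tyms, 0.133 for Slc7a3 and 0.172 for Gars.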

How the results depend on the processing

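The count of members lower at day 14 than at day 0 (9 in WT, 8 in 6A) stayed within 1.5 times under every alternative except CAST-assigned reads alone, which gave 5 in each genotype but tested only 6 of the 10, since Ddit3, Chac1, Trib3 and Sesn2 had too few such reads. The 1 member higher at day 14 became 0 in both genotypes on CAST-assigned and on 129-assigned reads. At day 14, the 2 members higher in 6A became 1 with DESeq2, 1 on CAST-assigned reads, 0 on 129-assigned reads, and 1 to 2 when a library was left out. In the test of the difference between changes, the 2 members became 0 on CAST-assigned reads, 0 on 129-assigned reads, and 0 to 2 when a library was left out. Fits on 2 groups alone cannot give that difference. Where a value turned in sign, the cause was not tested.

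Reversals outside the removal of a library were these, in log2 units. On CAST-assigned reads at day 0, the 6A difference was 0.1702 for Atf4, 0.0944 for Psat1, 0.4219 for Phgdh and -0.007634 for Asns. Summed over the 2 libraries of WT and of 6A, CAST reads were 24 and 37 for Phgdh and 40 and 50 for Psat1. Atf4 had 167 and 223, and Asns 2887 and 3379. Asns at day 0 was also -0.006578 with RLE, -0.007251 with no filter, -0.006467 with DESeq2 and -0.009824 with the 2 groups alone, and Atf5 was 0.009602 on 129-assigned reads. At day 14, 129-assigned reads gave -0.008239 for Atf4 and 0.2364 for Hnrnpk, and CAST-assigned reads gave -1.232 for Mthfd2 and -0.301 for Sfxn3. CAST-assigned reads also turned the change between days for Dnajc3 (-1.589 in WT, -3.808 in 6A), Sfxn3 (-2.214 in WT, -1.953 in 6A), Atf5 (0.3119 in 6A) and Tyms (0.1525 in 6A), and the difference between changes for Psat1 (-0.08848), Phgdh (-0.9948) and Mthfd2 (-1.635), while 129-assigned reads turned that of Ddit3 (0.3567). Of these, only Dnajc3 and Sfxn3 passed the test with the turned sign. Sfxn3 lies on chromosome 19, where only 2.57% to 3.81% of allele reads were CAST. With a library left out, values near 0 turned: at day 0 Atf5 (-0.4178 to 0.04393), Asns (-0.05203 to 0.07008), Psat1 (-0.1875 to 0.1493) and Sesn2 (-0.2108 to 0.07035), and at day 14 Atf4 (-0.05618 to 0.07966), Ddit3 (-0.08301 to 0.1266), Trib3 (-0.02733 to 0.3567) and Phgdh (-0.2261 to 0.03257). None of these passed in either direction.

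Over all genes, the 244 calls at day 0 became 21 to 567, the latter without WT replicate 1 of day 0, the 2109 at day 14 became 141 to 2776, and the 733 of the difference between changes became 11 to 1018, with the lowest of each on CAST-assigned reads. Same-numbered libraries deviated together with r from 0.004 to 0.237 over 6 pairs of groups, so the numbers were not taken to pair them. With the replicate block the 3 counts were 466, 2534 and 1018. Under the block Shmt2 passed the test of the difference between changes (log2 0.477, adjusted p = 0.0491, edgeR), and the calls of the other members stayed on the same side of the threshold in the 5 contrasts. With 2 libraries a group, and 80 to 132 counts of Chac1 and 89 to 99 of Trib3 at day 14, small differences could be missed. The 95% interval of the log2 difference of 6A over WT at day 14 ran from 0.26 to 1.23 for Chac1. For Trib3 it ran from -0.34 to 0.70, both before adjustment for the number of genes.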
